A study of Schizosaccharomyces pombe with 8 samples.

Results

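The libraries of 2 fission yeast strains, one labelled iec1-delta and one labelled nht1-delta, were compared directly with each other. They are 4 of the 8 RNA sequencing libraries of the series, and were taken by their labels: replicates 1 and 2 of each genotype. The other 4 libraries, 2 of wild type and 2 labelled iec5-delta, entered the estimate of spread and are given as levels for reference, but took no part in the contrast. All were Schizosaccharomyces pombe cells taken from mid-log cultures in the rich medium YEA, and the RNA, with ribosomal RNA removed, was made into strand-specific libraries. Each genotype is 1 strain (CS2379 for iec1-delta, CS2354 for nht1-delta, SPJ1577 for wild type and CS2370 for iec5-delta), no other allele is named, the labels do not say whether its replicates were separate cultures, and p-values therefore measure the spread between these libraries.

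INO80 is a chromatin remodeller that uses ATP to slide and space nucleosomes. An ATPase of the same name is assembled with actin, actin-related proteins, the Rvb ATPases and smaller subunits. Nht1 is an HMG-box protein and Iec1 a zinc finger protein, and both are counted among the subunits that fission yeast has beside this shared core. The comparison asks where RNA levels differ between strains that are labelled as lacking different subunits of 1 complex.

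Few RNAs passed the test. Of 4652 coding genes tested, 6 were higher (0.129% of those tested) and 1 lower (0.0215%) in the iec1-labelled than in the nht1-labelled libraries. The genes that rose encode a WD repeat protein (SPBC18H10.05), a methyltransferase (SPCC70.08c), the protein kinase Ppk31, the survivin Bir1, a Dis3-like exonuclease (SPBC609.01) and an aminotransferase (SPBC1773.03c), with differences of 1.74-fold to 3.44-fold. The gene that fell encodes a transmembrane transporter (SPBC887.17), which was 1.77-fold higher in the nht1-labelled libraries. In whole cultures, more RNA per cell and more cells that make it cannot be told apart. Calls are from the edgeR quasi-likelihood test at a Benjamini-Hochberg adjusted p under 0.05, and every adjusted p below is from that test unless another is named. Left out in turn, nht1-labelled replicate 1 ended all 7 calls and nht1-labelled replicate 2 all but that of SPCC70.08c. Without replicate 1 the 6 rises were 0.75 to 1.72 and the fall -0.71 on the log2 scale. Without replicate 2 they were 0.84 to 1.84 and -0.93. A fit of the 4 libraries alone called 32 genes (0.694%) and DESeq2 called 20 (0.488%), each including all 7.

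Libraries labelled iec1 and nht1 differed from each other about as much as replicates did. Coding counts totalled 2208165 and 3403361 in the iec1-labelled libraries and 3235768 and 2762696 in the nht1-labelled ones, and 3 counts were worth 0.881 to 1.38 CPM (the authors' counts scaled to TMM library sizes; counts per length were used only where said). Over the 4652 genes, log2 CPM of an iec1-labelled and an nht1-labelled library differed with an SD of 0.357 to 0.387, against 0.381 between the replicates of iec1 and 0.337 between those of nht1. The median log2 fold change, iec1 minus nht1, was -0.00, with quartiles at -0.12 and 0.16. For 86.7% of coding genes the 95% interval of the difference, not adjusted for the number of genes, lay inside a 2-fold change in either direction, and the median half-width of that interval was 0.39 on the log2 scale. An unadjusted p under 0.05 was found for 5.95% of coding genes. Both iec1-labelled libraries lay above both nht1-labelled ones for 18.3% of genes and below both for 14.8%.

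**Figure D1:**
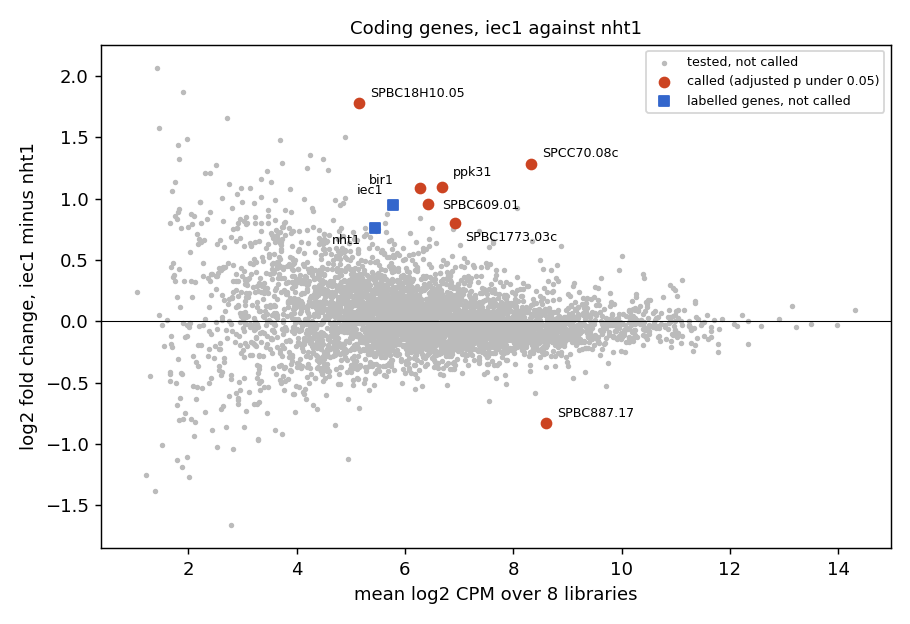
Each point is 1 of 4652 coding genes: the horizontal axis is the mean log2 CPM over 8 libraries and the vertical axis the log2 fold change, iec1 minus nht1. Red points are the 7 genes called, of which 6 lie above 0 and 1 (SPBC887.17) below; blue squares are iec1 and nht1, which were not called.

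The genes named by the labels were examined first, as a check of the strains. In the files' build, ASM294v2, iec1 (SPAC144.02) spans 4652937 to 4654387 of chromosome I. It stood at 95.4 and 88.4 CPM in the iec1-labelled libraries and at 39.0 and 56.4 in the nht1-labelled ones. Its RNA was thus higher where the gene is labelled as deleted, and the groups did not overlap. The log2 fold change was 0.95 (SE 0.21, 95% interval 0.51 to 1.39), which did not pass (adjusted p = 0.0880); the test was passed in the fit of 4 libraries (edgeR adjusted p = 0.00397) and under DESeq2 (adjusted p = 0.0318). In wild type it stood at 40.5 and 36.4 CPM and in the iec5-labelled libraries at 46.8 and 34.4, so the iec1-labelled libraries were above every other library. On the same chromosome nht1 (SPAC10F6.08c, 1219667 to 1220847) stood at 24.9 and 34.9 CPM in the nht1-labelled libraries and at 41.3 and 58.4 in the iec1-labelled ones (log2 fold change 0.76, SE 0.25, adjusted p = 0.417). Its reads were lower where it is labelled as deleted but far from 0, at 24.9 CPM or more against 40.2 to 52.5 in the 4 libraries of wild type and iec5. Neither label is therefore borne out by an absence of reads, the sources used here do not say which part of each gene was removed, and every direction is that of the libraries so labelled.

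The genes beside these loci were read as well, chosen after their values were seen. On chromosome I, 780 bases from nht1, mug94 (SPAC10F6.07c) had 47.5 and 52.0 CPM in the nht1-labelled libraries against 26.1 and 20.0 in the iec1-labelled ones, and 16.8 to 29.7 in the other 4. The nht1-labelled libraries were the highest of the 8, with a log2 fold change of -1.13 (SE 0.27, adjusted p = 0.131). The difference passed in the fit of 4 libraries (edgeR adjusted p = 0.00776) but not under DESeq2 (adjusted p = 0.0622). The gene on the other side, psm3, for a cohesin subunit, was at -0.25 (SE 0.14, adjusted p = 0.931). Beside iec1, ade2 was at 0.07 (SE 0.13, adjusted p = 0.989) and SPAC144.01 at 0.39 (SE 0.43, adjusted p = 0.961), neither past the test.

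Promoter windows are shown here for the 2 called genes with the largest rises, SPBC18H10.05 and SPCC70.08c, and for SPBC887.17, the 1 called gene that fell. Each runs from 250 bases before to 50 after the gene start that RefSeq gives on build ASM294v3, 5′ to 3′ on the strand of the gene: chrII:1779004-1779303 on the plus strand for SPBC18H10.05, chrIII:2368617-2368916 on the minus strand for SPCC70.08c and chrII:3575193-3575492 on the plus strand for SPBC887.17. Capitals mark matches, on either strand, to any of the motifs TGACGT (core site of the stress factors Atf1 and Pcr1), TTACGTAA (Pap1), ACGCGT (MBF), GTAAACA (forkhead factors), GATAA (GATA factors), CCAAT (the Php complex) and TATAAA (bound by the TATA factor), which may overlap.
SPBC18H10.05: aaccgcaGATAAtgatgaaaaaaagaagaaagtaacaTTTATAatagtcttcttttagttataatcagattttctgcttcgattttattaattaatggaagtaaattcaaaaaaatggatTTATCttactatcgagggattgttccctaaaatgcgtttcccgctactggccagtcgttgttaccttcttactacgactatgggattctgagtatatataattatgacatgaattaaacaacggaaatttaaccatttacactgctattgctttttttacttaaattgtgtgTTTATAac
SPCC70.08c: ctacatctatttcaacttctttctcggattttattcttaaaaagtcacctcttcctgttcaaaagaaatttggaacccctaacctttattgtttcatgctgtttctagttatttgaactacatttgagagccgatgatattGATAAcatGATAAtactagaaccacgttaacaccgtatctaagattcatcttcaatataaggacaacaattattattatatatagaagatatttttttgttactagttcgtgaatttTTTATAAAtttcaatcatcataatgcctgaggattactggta
SPBC887.17: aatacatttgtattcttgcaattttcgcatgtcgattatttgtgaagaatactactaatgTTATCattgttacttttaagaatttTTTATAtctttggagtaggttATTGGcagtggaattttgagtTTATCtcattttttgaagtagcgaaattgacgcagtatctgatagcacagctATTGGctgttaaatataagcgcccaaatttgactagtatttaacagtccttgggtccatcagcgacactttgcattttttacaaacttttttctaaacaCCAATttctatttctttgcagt
In these windows the capitals are GATA and TATA box motifs in SPBC18H10.05 and SPCC70.08c, and these together with CCAAT in SPBC887.17. Over the 7 called genes GATAA was found in 6 windows (59.5% of all 5114 coding windows), TATAAA in 4 (48.1%), CCAAT in 2 (42.2%) and GTAAACA in 1 (16.5%). The Atf1 and Pcr1 core site was in 0 of the 7 windows (5.91% of all windows), as were the Pap1 site (0.469%) and the MBF site (3.25%). These matches describe the letters in the windows and were not tested.

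SPBC18H10.05 (chromosome II, 1779259 to 1781985) showed the largest difference among the called genes. It had 101 and 70.8 CPM in the iec1-labelled libraries and 23.9 and 25.8 in the nht1-labelled ones, a rise of 1.78 on the log2 scale (SE 0.26, 95% interval 1.24 to 2.32, adjusted p = 0.00399). The nht1-labelled libraries lay near wild type, at 16.01 and 16.2, and iec5, at 12.5 and 21.0, while the iec1-labelled ones stood well above all 6. It overlaps swd2, which lies on the opposite strand and had a log2 fold change of -0.18 (SE 0.61, adjusted p = 0.993), so its reads are uncertain as to gene.

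SPCC70.08c (chromosome III, 2367804 to 2368636) had 701 and 804 CPM in the iec1-labelled libraries and 260 and 360 in the nht1-labelled ones. The rise was 1.28 on the log2 scale (SE 0.17, 95% interval 0.92 to 1.64, adjusted p = 0.00399). Wild type stood at 59.5 and 85.3 CPM and iec5 at 152 and 160, so the order was wild type, iec5, nht1, iec1 with no overlap between neighbours. A noncoding feature described further on covers it on the opposite strand, as another does for most of ppk31. The kinase gene ppk31 (SPBC725.06c, chromosome II, 1212690 to 1216671) went from 101 and 113 CPM in the nht1-labelled libraries to 249 and 209 in the iec1-labelled ones (1.10, SE 0.15, adjusted p = 0.00399). Here iec5, at 42.5 and 37.3, overlapped wild type, at 39.6 and 41.9, and the nht1-labelled libraries lay between these and iec1.

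The gene bir1 (SPCC962.02c, chromosome III, 545805 to 549313) encodes the survivin of the chromosomal passenger complex, which works at centromeres and the spindle in mitosis. It had 146 and 160 CPM in the iec1-labelled libraries against 71.1 and 73.5 in the nht1-labelled ones (1.08, SE 0.18, 95% interval 0.71 to 1.46, adjusted p = 0.0112). Wild type (43.8 and 33.0) and iec5 (53.0 and 40.5) overlapped each other and lay below both. It overlaps tcb1 on the opposite strand, which was at -0.03 (SE 0.15, adjusted p = 0.995), and its call ended without iec1-labelled replicate 2 as well (adjusted p = 0.0552).

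The Dis3-like exonuclease gene SPBC609.01 (chromosome II, 3155857 to 3161616) had 189 and 186 CPM in the iec1-labelled libraries and 89.7 and 104 in the nht1-labelled ones (0.96, SE 0.15, adjusted p = 0.0106). Its levels were ordered like those of SPCC70.08c, with wild type at 20.2 and 21.4 and iec5 at 41.2 and 37.0. The aminotransferase gene SPBC1773.03c (chromosome II, 285909 to 288246) had 202 CPM in each iec1-labelled library and 113 and 120 in the nht1-labelled ones (0.80, SE 0.14, adjusted p = 0.0196). Its order was the same, with wild type at 77.3 and 77.0 and iec5 at 86.3 and 88.1, and its call ended without either iec1-labelled library too (adjusted p = 0.0776 and 0.106).

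SPBC887.17 (chromosome II, 3575420 to 3578114) was the 1 gene that fell, with 129 and 148 CPM in the iec1-labelled and 265 and 227 in the nht1-labelled libraries (-0.83, SE 0.16, 95% interval -1.16 to -0.49, adjusted p = 0.0446). Wild type was highest, at 782 and 590, and iec5 followed at 500 and 470, so the order of the strains was that of SPCC70.08c turned over, again with no overlap between neighbours. It overlaps hfi1 on the opposite strand, which was at -0.03 (SE 0.17, adjusted p = 0.995). The call also ended without iec1-labelled replicate 1 (adjusted p = 0.210).

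**Figure D2:**
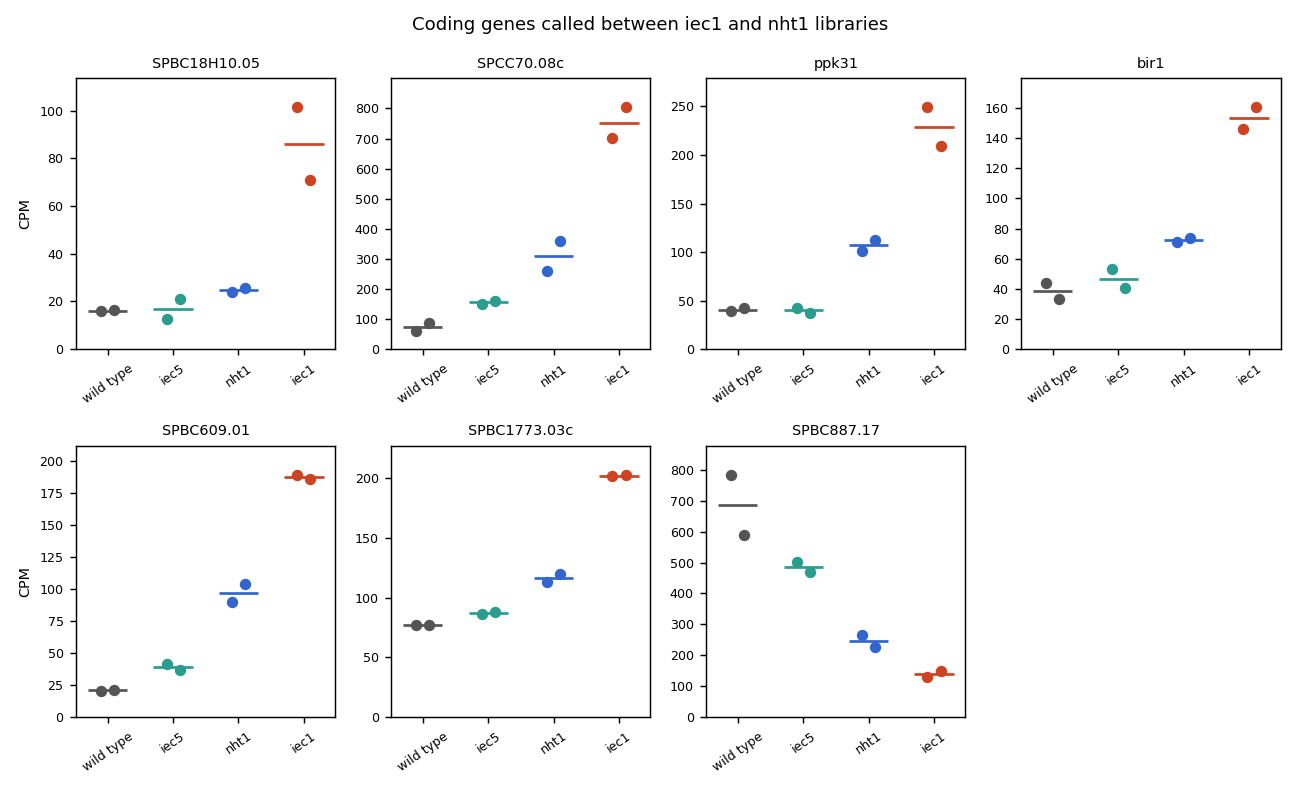
Each panel is 1 coding gene called between the iec1-labelled and nht1-labelled libraries; each point is the CPM of 1 library, on a linear axis from 0, and each bar the mean of 2 libraries. In all 7 panels the nht1-labelled libraries lie between wild type and iec1, and for SPBC18H10.05 they are close to wild type. Their separation from iec1 was a condition for naming these genes, and the share of all genes with this order was not counted.

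No called gene had a called neighbour among those tested: of the genes on either side of the 7, 11 were tested and 0 passed. Their log2 fold changes ran from -0.18 (swd2) to 0.32 (ptn1). Their unadjusted p-values were 0.26 (bcp1) or more, and none was among the 20 DESeq2 calls. Over all coding genes only 0.129% were called higher and 0.0215% lower, so 0 of 11 says little. Both neighbours of SPCC70.08c (tmp1 and mug9) and SPBC887.16, beside SPBC887.17, were not tested.

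A further 13 genes passed both in the edgeR fit of 4 libraries and with DESeq2, itself run on all 8, but not in the edgeR fit of all 8. They are named here after their values were seen. Among them SPCC4G3.12c, for a ubiquitin ligase, was just outside the threshold, with 51.4 and 64.9 CPM in the iec1-labelled and 15.7 and 25.8 in the nht1-labelled libraries (1.501, SE 0.30, adjusted p = 0.0568). Wild type, at 14.5 and 25.4, overlapped nht1. The purine nucleoside transporter gene SPCC285.05 (56.4 and 35.2 against 17.3 and 18.9 CPM; 1.32, SE 0.28, adjusted p = 0.0854) and the glyoxylate reductase gene gor2 (109 and 113 against 65.7 and 58.2; 0.84, SE 0.18, adjusted p = 0.0854) likewise had nht1-labelled levels near those of wild type, at 13.9 and 13.1 and at 64.3 and 59.9. The GTPase regulator gene SPCC584.03c, which overlaps cuf2, was at 1.23 (SE 0.28, adjusted p = 0.110) and the lifespan gene ecl1, which overlaps nnk1 on its own strand, at 0.87 (SE 0.19, adjusted p = 0.0860). The short chain dehydrogenase gene SPCC663.08c was at 0.75 (SE 0.17, adjusted p = 0.0913), the aromatic aminotransferase gene SPAC56E4.03, which overlaps cut6, at 0.73 (SE 0.17, adjusted p = 0.120) and the acetyltransferase gene SPBC1271.07c, which overlaps SPBC1271.08c, at 0.65 (SE 0.16, adjusted p = 0.137). The other 5 were iec1, osr1, byr2, gdh2 and tps1, of which tps1 was the only one of the 13 below 0.

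Genes were next read by function, in 28 lists of pathways and complexes. Of 870 list members tested, edgeR called 0; 62 had an unadjusted p under 0.05 (7.13%, against 5.95% of all coding genes), 53 of them higher in the iec1-labelled libraries, where over all coding genes 218 of 277 such genes were higher. DESeq2 called 5 of them (iec1, osr1, byr2, gdh2 and tps1), and the fit of 4 libraries 8, these 5 with urg1, aes1 and spp27. The values that follow are thus of members that did not pass, and the list medians are set beside the median of all genes, -0.00. Reads are uncertain as to gene for the named members that overlap another coding gene: ino80, ies4, iec5, hhf2, rap1, scm3, gdh2, arg12, dea2, tps1, mas5, zrt1, byr2, ste4, spo5, crb2, rps3001, rps13, sda1, rrn10, lsc1 and wtf5.

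No gene of an INO80 subunit passed. Of 16 members, iec1 and nht1 among them, 5 were above 0 and 11 below, with a median of -0.08. The ATPase gene ino80 had 215 and 178 CPM in the iec1-labelled and 259 and 210 in the nht1-labelled libraries (-0.26, 95% interval -0.64 to 0.12), and arp5, for an actin-related subunit, was at -0.18 (-0.45 to 0.09). Intervals were wide for the little-counted ies4 (-1.31 to 0.60) and iec3 (-0.97 to 0.54). Of 32 tested genes of other remodellers (median -0.03), rsc1, for a bromodomain subunit of RSC, was at 0.45 (SE 0.16, adjusted p = 0.499). The helicase gene irc20, which lies 4407 bases from iec1, was at 0.34 (SE 0.14, adjusted p = 0.763).

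**Figure D3:**
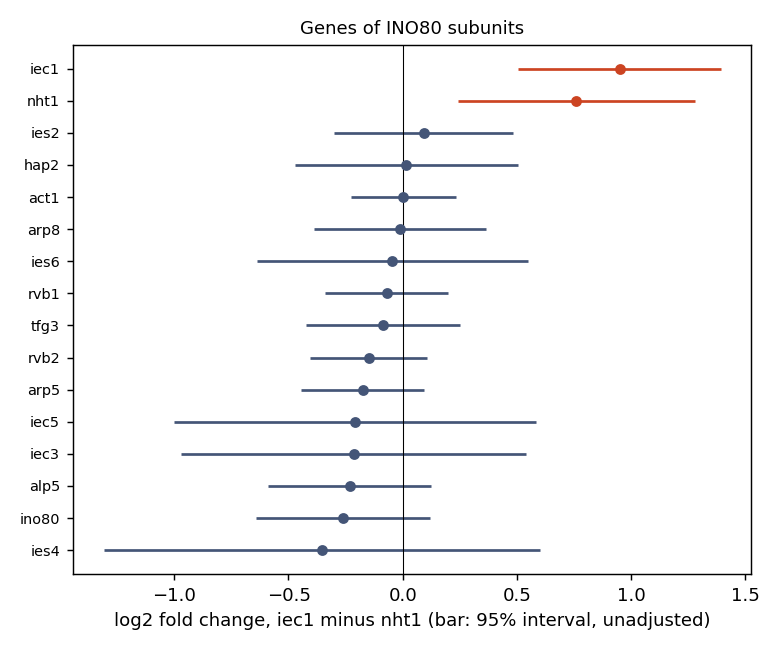
Points are log2 fold changes, iec1 minus nht1, of the 16 genes of INO80 subunits, with bars for 95% intervals not adjusted for the number of genes. The 2 genes named by the labels, in red, are at 0.95 and 0.76, and for the other 14 the interval includes 0.

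No chromatin gene on the lists passed. Of 10 histone genes 9 were below 0 (median -0.10), with the histone H4 gene hhf2 at 0.24 (SE 0.14, adjusted p = 0.943) and the H3 gene hht1 at -0.16 (SE 0.12, adjusted p = 0.943). Among 39 heterochromatin and RNAi factors (median 0.06), the silencing gene clr5 was at 0.41 (SE 0.20, adjusted p = 0.845) and arb1, whose product binds Argonaute, at 0.33 (SE 0.19, adjusted p = 0.943). Of 16 genes for the inner nuclear membrane and telomeres (median 0.03), nur1, for a partner of Lem2, had 43.1 and 42.0 CPM in the iec1-labelled and 28.9 and 24.4 in the nht1-labelled libraries, above wild type at 9.36 and 5.20. Its groups did not overlap, but at 0.67 (SE 0.27, adjusted p = 0.763) it did not pass, nor did the telomere gene rap1 at 0.59 (SE 0.22, adjusted p = 0.632). In centromere assembly (27 genes tested, median 0.07), scm3, for the CENP-A chaperone, was at 1.08 (SE 0.37, adjusted p = 0.499) with 22.9 and 15.9 against 6.92 and 11.3 CPM, and fta1 at 0.50 (SE 0.19, adjusted p = 0.632).

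Of 35 nitrogen-regulated genes, 20 were above 0 and 15 below (median 0.08). An unadjusted p under 0.05 was found for 7 of them, all higher, against 6 higher and 1 lower of 44 core stress genes, 10 higher and 3 lower of 59 subtelomeric genes, and 218 higher and 59 lower of all 4652 genes. The gene urg1, for a GTP cyclohydrolase of uracil catabolism, had 35.3 and 27.0 CPM against 11.95 and 10.2 in the nht1-labelled libraries and 3.62 and 4.59 in wild type (1.47, SE 0.31, adjusted p = 0.0854). The glutamate dehydrogenase gene gdh2 had 316 and 256 CPM against 188 and 175 (0.65, SE 0.14, adjusted p = 0.0854). Of 45 genes for amino acid synthesis and strain markers, 33 were above 0 (median 0.09), and 5 had an unadjusted p under 0.05, led by arg12, for argininosuccinate synthase (0.42, SE 0.12, adjusted p = 0.246; it overlaps rxt2), and lys4, for homocitrate synthase (0.35, SE 0.12, adjusted p = 0.499). Of 27 genes of nucleotide synthesis (median 0.02), the adenine deaminase gene dea2 was at 0.47 (SE 0.14, adjusted p = 0.380) and ade7 at 0.29 (SE 0.15, adjusted p = 0.881).

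Stress genes lay on both sides of 0. Of 44 core stress genes, 17 were above 0 and 27 below (median -0.06). The dehydrogenase gene osr1 had 466 and 626 CPM in the iec1-labelled libraries and 239 and 338 in the nht1-labelled ones (0.92, SE 0.20, adjusted p = 0.0880), with wild type at 33.5 and 45.2. In the other direction tps1, for trehalose-6-phosphate synthase, had 248 and 265 CPM against 364 and 405, and wild type at 325 and 339 lay between (-0.58, SE 0.13, adjusted p = 0.110; it overlaps dbl4 on its own strand). Of 21 heat shock and chaperone genes, 19 were below 0 (median -0.17), with mas5, a DnaJ-type chaperone gene, at -0.29 (SE 0.13, adjusted p = 0.804) and hsp90 at -0.25 (SE 0.13, adjusted p = 0.851). For hsp90 both iec1-labelled libraries, at 3899 and 3246 CPM, lay below the nht1-labelled ones, at 3975 and 4503. Wild type was lower still, at 2841 and 3183, and iec5 stood at 3195 and 3327. For mas5 the iec1-labelled libraries were at 350 and 304 CPM and the nht1-labelled ones at 391 and 408. There wild type was at 340 and 342 and iec5 at 384 and 355, so for both genes the nht1-labelled libraries were the highest of the 8.

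Metal, phosphate and sugar genes had medians of -0.02 to 0.10. Of 21 iron genes, php4, whose product represses genes of iron use, was at 0.48 (SE 0.20, adjusted p = 0.772) and the copper sensor gene cuf1 at 0.59 (SE 0.29, adjusted p = 0.847). Of 11 zinc genes, zrt1 was at 0.38 (SE 0.21, adjusted p = 0.910) and adh4 at 0.28 (SE 0.16, adjusted p = 0.924). Of 14 phosphate genes, the transporter gene pho84 was at -0.53 (SE 0.24, adjusted p = 0.807) and duf89 at -0.25 (SE 0.13, adjusted p = 0.885). For pho84 replicate 1 was above replicate 2 in every group, with 1142 and 659 CPM in nht1 and 673 and 581 in iec1. Wild type stood at 1323 and 738 and iec5 at 884 and 736. Of 39 glucose-repressed and hexose transport genes, the melibiase gene mel1 was at 1.09 (SE 0.41, adjusted p = 0.660), with 19.3 and 17.3 against 5.03 and 12.4 CPM, and adh8 at 0.46 (SE 0.18, adjusted p = 0.705).

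Of 30 mating genes tested (median 0.15), byr2, for the MAP kinase kinase kinase of the pheromone cascade, had 142 and 176 CPM in the iec1-labelled and 87.5 and 102 in the nht1-labelled libraries (0.76, SE 0.16, adjusted p = 0.0854), while ste4, for an adaptor of the same cascade, had 9.17 and 12.6 against 18.2 in each (-0.71, SE 0.29, adjusted p = 0.771). Both lay outside the wild-type range, of 48.9 to 50.4 for byr2 and 29.96 to 31.1 for ste4, and both overlap a gene on the other strand. Of 21 meiotic transcripts under Mmi1 control (median 0.12), spo5, for a meiotic RNA-binding protein, had 11.5 and 12.9 CPM against 4.09 and 3.64 (1.65, SE 0.43, adjusted p = 0.198), and the meiotic septin gene spn5 had 44.5 and 42.3 against 17.3 and 26.6 (0.99, SE 0.26, adjusted p = 0.198). For both, the nht1-labelled range included a wild-type value. Of 30 surface genes (median -0.08), pfl3 was at 0.44 (SE 0.14, adjusted p = 0.396) and the MADS-box factor gene mbx2 at 0.38 (SE 0.15, adjusted p = 0.763).

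Cell cycle and repair genes gave medians of -0.10 (24 MBF and S phase genes) and 0.13 (35 damage and recombination genes). The licensing gene cdt1 was at 0.72 (SE 0.24, adjusted p = 0.463) and the MCM loader gene cdc18 at -0.36 (SE 0.19, adjusted p = 0.885). The checkpoint adaptor gene crb2 was at 0.67 (SE 0.28, adjusted p = 0.771) and rad15, for a TFIIH helicase, at 0.33 (SE 0.14, adjusted p = 0.793). Of 114 ribosomal protein genes the median was -0.00, and differences ran from -0.21 to 0.27, with rps3001 at 0.26 (SE 0.16, adjusted p = 0.943) and rps13 at -0.18 (SE 0.15, adjusted p = 0.943). Of 91 ribosome biogenesis genes 67 were below 0, though the median was only -0.06, with rix7 at -0.23 (SE 0.14, adjusted p = 0.943) and sda1 at -0.21 (SE 0.13, adjusted p = 0.943). Of 17 genes of RNA polymerase I transcription (median -0.03), spp27, for a subunit of the upstream activation factor, had 83.0 and 109 CPM against 142 and 161, both below wild type at 255 and 232 (-0.65, SE 0.15, adjusted p = 0.120), and rrn10, for another subunit, was at 0.28 (SE 0.18, adjusted p = 0.943).

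All 8 mitochondrially encoded genes tested were above 0, between 0.01 and 0.26 (median 0.13), with SPMIT.04 at 0.26 (SE 0.13, adjusted p = 0.862) and SPMIT.08 at 0.19 (SE 0.15, adjusted p = 0.943). Of 55 nuclear respiration genes 36 were below 0 (median -0.12), with the NADH dehydrogenase gene nde1 at -0.31 (SE 0.15, adjusted p = 0.845); lsc1, listed there by its symbol, is annotated as a cyclin and stood at 1.21 (SE 0.70, adjusted p = 0.943). Of 18 wtf genes, a family of meiotic drivers (median 0.20), wtf5 was at 0.55 (SE 0.19, adjusted p = 0.499) and wtf12 at 0.75 (SE 0.34, adjusted p = 0.807); these genes resemble each other, so their reads are uncertain as to gene. The same holds for Tf2 retrotransposons, of which 5 of 13 were tested (median -0.21): Tf2-8 was at 2.07 (SE 1.06, adjusted p = 0.856) from 1.38 and 4.11 against 0.315 and 1.09 CPM, and Tf2-2 at -0.31 (SE 0.57, adjusted p = 0.991). Subtelomeric genes were taken as those of chromosomes I and II with a distance to an end under 100 kb; 59 of 124 were tested, and differences ran from -1.66 to 1.49 around a median of 0.04. The aldehyde dehydrogenase gene atd2 had 138 and 139 CPM against 101 and 76.7 (0.64, SE 0.17, adjusted p = 0.198), and cmt2, for a catechol methyltransferase, 15.6 and 16.4 against 9.12 and 4.36 (1.22, SE 0.39, adjusted p = 0.396).

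**Figure D4:**
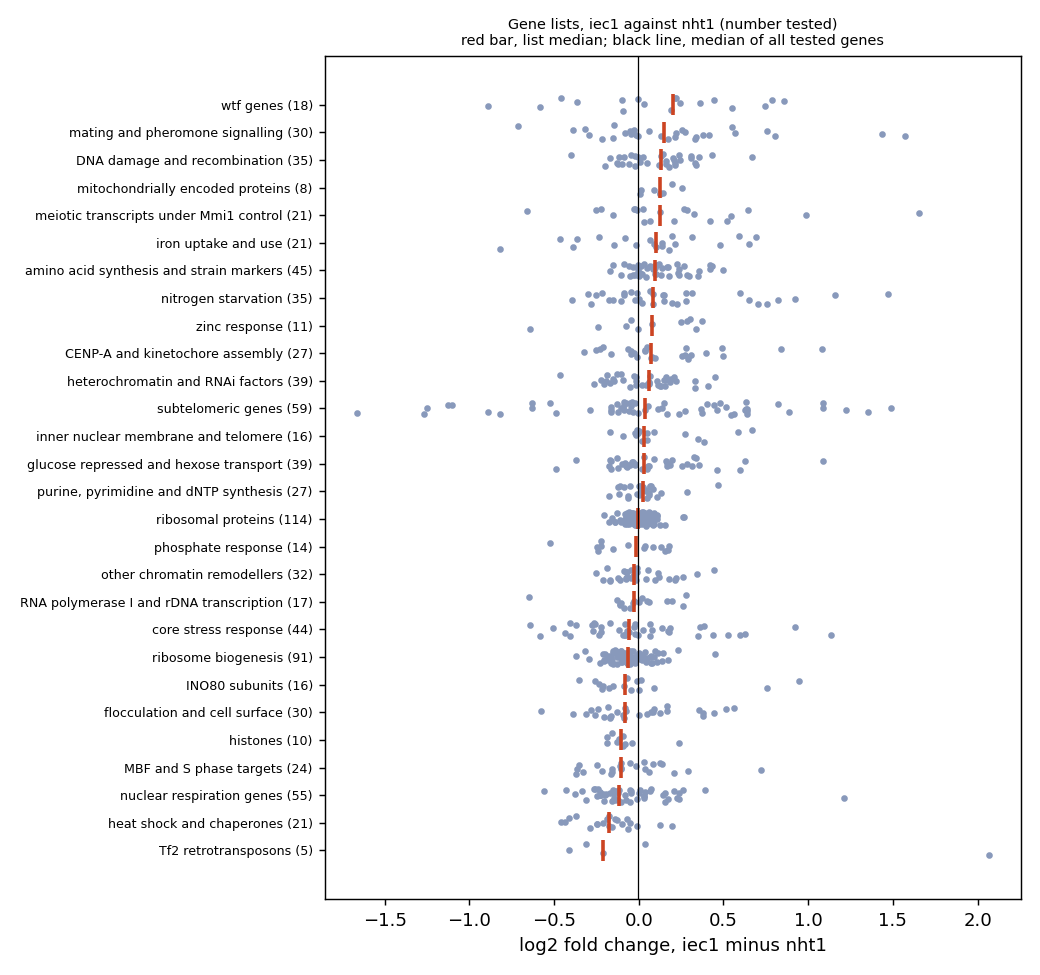
Each row is 1 of the 28 gene lists, ordered by its median, and each point the log2 fold change, iec1 minus nht1, of a tested member. List medians run from -0.21 (Tf2 retrotransposons) to 0.20 (wtf genes), around the median of all tested genes at -0.00.

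Among noncoding features 5 of 1096 tested rose (0.456%) and 1 fell (0.0912%), and 8.12% had an unadjusted p under 0.05. The median log2 fold change was 0.07, and 0.03 when library sizes and TMM factors came from the noncoding counts themselves. It was 0.05 without iec1-labelled replicate 2 or nht1-labelled replicate 1, and 0.12 without nht1-labelled replicate 2. The pooled median hides a difference between classes of feature. Tested features that overlap no coding gene had a median of 0.27. Those that overlap one only on the opposite strand had 0.07, and those that overlap one on their own strand 0.04. These class medians are from the main fit only, and the classes were not tested against each other. SPNCRNA.1292 (chromosome III, 2367506 to 2368757) had 771 and 892 CPM in the iec1-labelled and 285 and 402 in the nht1-labelled libraries (1.28, SE 0.16, adjusted p = 3.71e-05). It covers SPCC70.08c on the opposite strand, and its groups stood in the order of that gene's. SPNCRNA.1421 (chromosome II, 1212519 to 1216202) had 253 and 215 CPM against 100 and 113 (1.13, SE 0.15, adjusted p = 5.23e-05), within 10 CPM of ppk31, which it lies opposite, in each library. SPNCRNA.1213 (chromosome III, 1647025 to 1649005), with 238 and 291 against 143.8 and 182 (0.71, SE 0.15, adjusted p = 0.0173), covers SPCC663.08c in the same way.

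How closely counts of opposite features follow each other was measured where the overlap was nearly complete. Of 272 tested noncoding features with at least 90% of their length inside 1 coding gene of the opposite strand, 89.3% had counts per base within 2-fold of that gene, with a median ratio of 1.11, and across these pairs Pearson's r of the log2 fold changes was 0.81. Of 21 such features inside a gene of their own strand, 57.1% were within 2-fold, and r was 0.43. SPNCRNA.1421, with 95.4% of its length inside ppk31, is among the 272, while SPNCRNA.1292 and SPNCRNA.1213 are not, since 66.5% and 56.5% of their length lies opposite SPCC70.08c and SPCC663.08c. The sources used here do not give the strand setting of the authors' counting, and how far reads of these 3 features and of the genes opposite are shared was not tested.

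The other 3 noncoding calls were SPNCRNA.1487, SPNCRNA.1153 and SPNCRNA.1094. SPNCRNA.1487 (chromosome II, 2120212 to 2121384) had 212 and 176 CPM in the iec1-labelled and 77.1 and 91.3 in the nht1-labelled libraries (1.20, SE 0.22, adjusted p = 0.00233). Wild type was spread over 148 and 82.2, and iec5 was lowest, at 45.8 or less. The glycosylase gene opposite, mag2, had 0.727 to 4.41 CPM in the iec1-labelled and nht1-labelled libraries. Its log2 fold change was 0.80, in the same direction (adjusted p = 0.961), from too few counts to tell whether the 2 go together. SPNCRNA.1153 (chromosome III, 717659 to 718923), which overlaps no coding gene, had 193 and 272 CPM against 121 in each (0.95, SE 0.19, adjusted p = 0.00952). Its call ended without iec1-labelled replicate 2 (adjusted p = 0.550) or either nht1-labelled library (0.0781 and 0.0665), that of SPNCRNA.1213 without iec1-labelled replicate 2 (0.559) or nht1-labelled replicate 1 (0.469), and that of SPNCRNA.1487 without nht1-labelled replicate 1 (0.0609).

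SPNCRNA.1094 (chromosome III, 23658 to 23889), near the left end of its chromosome and overlapping no coding gene, was the 1 noncoding feature that fell. It had 31.6 and 22.6 CPM in the iec1-labelled libraries and 80.8 and 64.7 in the nht1-labelled ones (-1.45, SE 0.22, 95% interval -1.90 to -0.99, adjusted p = 0.000289). Here the nht1-labelled libraries were the highest of the 8, above wild type at 43.8 and 40.4, while iec1 lay with iec5, at 25.04 and 23.0. The call held without each of the 4 compared libraries in turn.

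**Figure D5:**
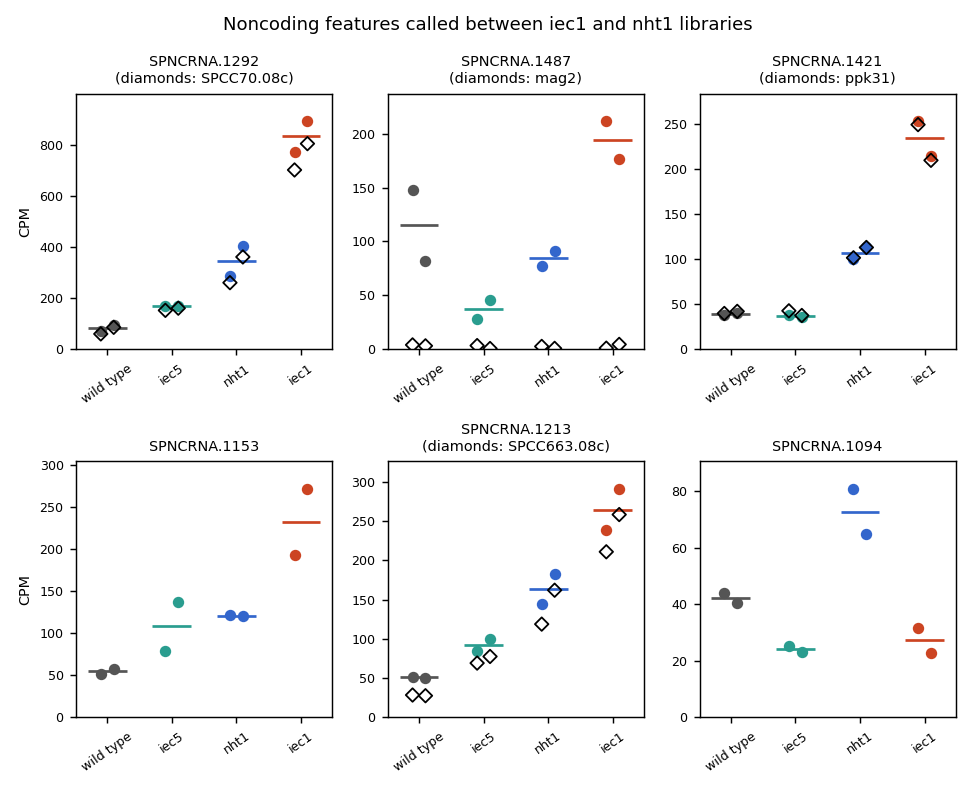
Each panel is 1 called noncoding feature; filled points are its CPM in each library and bars the mean of 2, on a linear axis from 0. Open diamonds are the coding gene on the opposite strand with the longest overlap, which SPNCRNA.1292, SPNCRNA.1421 and SPNCRNA.1213 follow. For SPNCRNA.1487 that gene, mag2, has too few counts in the compared libraries for this to be judged.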

How the data were processed

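Read counts per feature for 8 libraries were deposited by the authors in 2 tables, 1 of 5137 coding and 1 of 1528 noncoding features. The submitters' processing notes name HISAT2 2.1.0, featureCounts 1.6.1, DESeq2 1.28.0 and build ASM294v2, used by the authors upstream of or beside these counts; no source used here gives the strand setting, the treatment of multiply mapped reads or filters. Symbols and products are from RefSeq on ASM294v3, which matched 5115 coding and 1428 noncoding features, and coordinates are those of the files except for promoter windows.

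Counts were tested here with edgeR 4.0.16 (R 4.3.3; TMM, default low-count filter, quasi-likelihood F test, Benjamini-Hochberg over all features of a table) in 1 fit of 8 libraries by group, with the contrast iec1 minus nht1; the biological coefficient of variation was 11.9% (coding) and 13.1% (noncoding). Noncoding features took the coding library sizes and TMM factors. SE is approximate (the size of the log2 fold change divided by root F), and 95% intervals use the fit's degrees of freedom. Lists (28; 1098 entries, of which 51 matched no gene) were described without a test. The members and lists were chosen with earlier results of these data known. Named genes were the 2 labelled genes, up to 12 coding and 6 noncoding features each way among those called with mean log2 CPM above 2 and groups that did not overlap, and from each list up to 4 called members or the 2 with the smallest p. Alternatives were DESeq2 1.42.0, RLE (for noncoding features their own normalization), no filter, a replicate block, 4 libraries only, a minimum fold, and leaving out each compared library. The code was tested on simulated data.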

Additional observations from a re-analysis of the deposited data

How the results depend on the processing

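The coding calls (6 higher, 1 lower) varied between fits: 18 and 2 with DESeq2, 28 and 4 with 4 libraries only, and 22 and 3 with a replicate block; RLE (7 and 1) and no filter (7 and 1) changed little, and a minimum log2 fold change of 1 left 4 and 0. Leaving out each compared library gave 0 to 8 higher and 0 to 1 lower. Noncoding counts (5 and 1) were 8 and 3 without a filter, 21 and 3 with the replicate block, 3 and 1 with the minimum fold, and 2 to 6 and 1 to 1 without each library, where the lone library of a group is assumed to vary like the others. The cause was not tested. Replicate numbers are shared by the groups. Deviations of same-numbered libraries correlated at -0.07 between nht1 and iec1 (-0.07 to 0.27 over all pairs of groups). The numbers were not taken as pairs in the main fit, and these correlations do not settle whether they should be. A correlation over all genes cannot show whether single genes share a replicate effect. Replicate 2 stood above replicate 1 in every group for osr1, but not for ppk31. The edgeR adjusted p of osr1 was 0.0880 in the main fit and 0.000188 with the replicate block. Among 69 named genes and features, 3 changed direction, none of them called: without 1 library, zrt1 ran from -0.00522 to 0.67 and rps3001 from -0.00488 to 0.48, each below 0 without iec1 replicate 1, and Tf2-2 from -0.69 to 0.0658, above 0 without iec1 replicate 2 or nht1 replicate 2 (0.02). With 2 libraries a group, a 2-fold change lay outside the interval for most coding genes but not for those with few counts, such as ies4 and Tf2-8.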
